A study of Mus musculus with 9 samples.

Results

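The genes of the proteasome were followed across 9 RNA-seq libraries of transduced mouse bone marrow cells. Members were the genes whose symbol starts with Psma to Psmg and a number, without pseudogenes named with "-ps". The pattern matched 54 genes, 4 were such pseudogenes, and 50 remained of 55274 gene identifiers. To be tested, a gene had to reach 1 FPKM in 3 or more libraries, which 49 of the 50 members and 13493 genes in all did. Levels are in FPKM, which corrects fragment numbers for transcript length and library depth. The member that did not pass was Psmb11, a catalytic subunit known from the thymic cortex, with at most 0.0311 FPKM, a level under that of 3 fragments in each library. The symbol of 1 tested member, Psmc3ip, fits the pattern although the gene encodes a meiotic recombination factor and no proteasome part. That leaves 48 tested proteasome genes. Counts, shares and medians over 49 or 50 members below still include Psmc3ip, which was called higher in both comparisons with NRASG12D.

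The 3 groups held 3 libraries each. NRASG12D cells carried an active RAS mutant in the retroviral vector MSCV-IRES-BFP. NUP98-NSD1 cells carried a fusion of a nuclear pore protein with a histone methyltransferase in MSCV-IRES-GFP, and NUP98-NSD1+NRASG12D cells carried both vectors. All cells came from the bone marrow of female C57BL/6J mice, 6 to 8 weeks old, given 5-fluorouracil at 150 mg/kg and used after 4 days. They were kept with interleukin-6, interleukin-3 and stem cell factor for 48 h, transduced, sorted by fluorochrome and grown on. The sources used here do not say whether replicates were separate cultures or pools of animals, so p-values measure the spread between these libraries.

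The proteasome is the main machine by which cells degrade proteins tagged with ubiquitin. Its 20S core is a barrel with outer alpha rings (Psma genes) and inner beta rings (Psmb genes), and 3 of the beta subunits cut the substrate. The 19S cap recognizes and unfolds the substrate with a ring of ATPases (Psmc genes) and non-ATPase subunits (most Psmd genes). In blood cells, and after interferon, Psmb8, Psmb9 and Psmb10 can replace the constitutive catalytic subunits Psmb5, Psmb6 and Psmb7, which forms the immunoproteasome. Its peptides feed antigen presentation. Messenger RNA was measured here, not subunit protein or activity.

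Depth was estimated from the steps between low FPKM values and ran from 22500000 to 35400000 fragments per library. Nras, the gene carried by one vector, ranged from 348 to 479 FPKM among NRASG12D libraries, from 47.7 to 51.2 FPKM among NUP98-NSD1 libraries and from 245 to 701 FPKM among those with both vectors. The label NRASG12D was read against 11 mast cell markers, since the study describes these cells as mostly mast cells. Together these reached 30047 to 32689 FPKM in NRASG12D cells, while NUP98-NSD1 cells had 26847 to 31873 FPKM. The sum was 974, 4347 and 745 FPKM in replicates 1, 2 and 3 of NUP98-NSD1+NRASG12D. Of these markers only Cpa3 was listed at 0, in all 3 NRASG12D libraries, which may be a failed estimate, and it had 12564 to 14379 FPKM in NUP98-NSD1 cells. Without Cpa3 the other 10 markers summed to 30047 to 32689 FPKM in NRASG12D, 13687 to 17495 FPKM in NUP98-NSD1 and 465 to 2526 FPKM in NUP98-NSD1+NRASG12D cells. In NUP98-NSD1 against NRASG12D cells 5 of the 11 were called lower and 3 higher, beside 9.98% and 42.2% of all tested genes. In NUP98-NSD1+NRASG12D cells 9 were called lower and 2 higher, beside 14.1% and 24.2%. Cpa3 was among the higher ones both times and passed the filter only through the groups with the fusion. The 11 granulocyte and monocyte markers summed to 30.9 to 109 FPKM, 3221 to 7988 FPKM and 17327 to 30458 FPKM in the same order of groups. In NRASG12D replicate 1, Mpo, Elane, Cebpe, S100a8 and S100a9 were listed at 0, and replicate 3 had Cebpe and S100a9 at 0. The 5 macrophage and dendritic cell markers summed to 41.9 to 71.3 FPKM, 419 to 597 FPKM and 640 to 1665 FPKM, the 4 erythroid markers to 1.78 to 4.24 FPKM, 26.2 to 63.2 FPKM and 3.55 to 37.5 FPKM, and the lymphoid markers to at most 0.272 FPKM. These markers differed between the groups compared below, and their part in the results was not tested. In such bulk samples, fewer cells of a type and less RNA per cell cannot be told apart.

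Proteasome genes were abundant in all libraries. Their share of all FPKM was 0.698% to 0.772% in NRASG12D cells and 0.914% to 0.985% in NUP98-NSD1 cells. Replicates 1, 2 and 3 of NUP98-NSD1+NRASG12D had shares of 1.20%, 0.910% and 0.978%. The 31 constitutive subunits of the 20S core and the 19S cap had group means of 45.2 to 247 FPKM in NRASG12D, 72.4 to 369 FPKM in NUP98-NSD1 and 89.7 to 399 FPKM in NUP98-NSD1+NRASG12D cells. In every group the highest level belonged to Psma7, an alpha subunit, with 247 ± 34.9, 369 ± 34.8 and 399 ± 132 FPKM (mean ± SD, n = 3). The next level in NRASG12D, that of the beta subunit Psmb3 with 202 ± 9.86 FPKM, overlapped with it between libraries. The lowest tested level was that of Psma8, a germ cell alpha subunit, in NRASG12D and NUP98-NSD1+NRASG12D cells. It had 0.773, 2.35 and 0.485 FPKM in NRASG12D, 5.43, 0.446 and 2.98 FPKM in NUP98-NSD1 and 0.395, 0.457 and 3.43 FPKM in NUP98-NSD1+NRASG12D cells. Its 3 groups overlapped. In NUP98-NSD1 cells the lowest tested level was that of Psme4, with 2.33 FPKM on average.

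**Figure D1:**
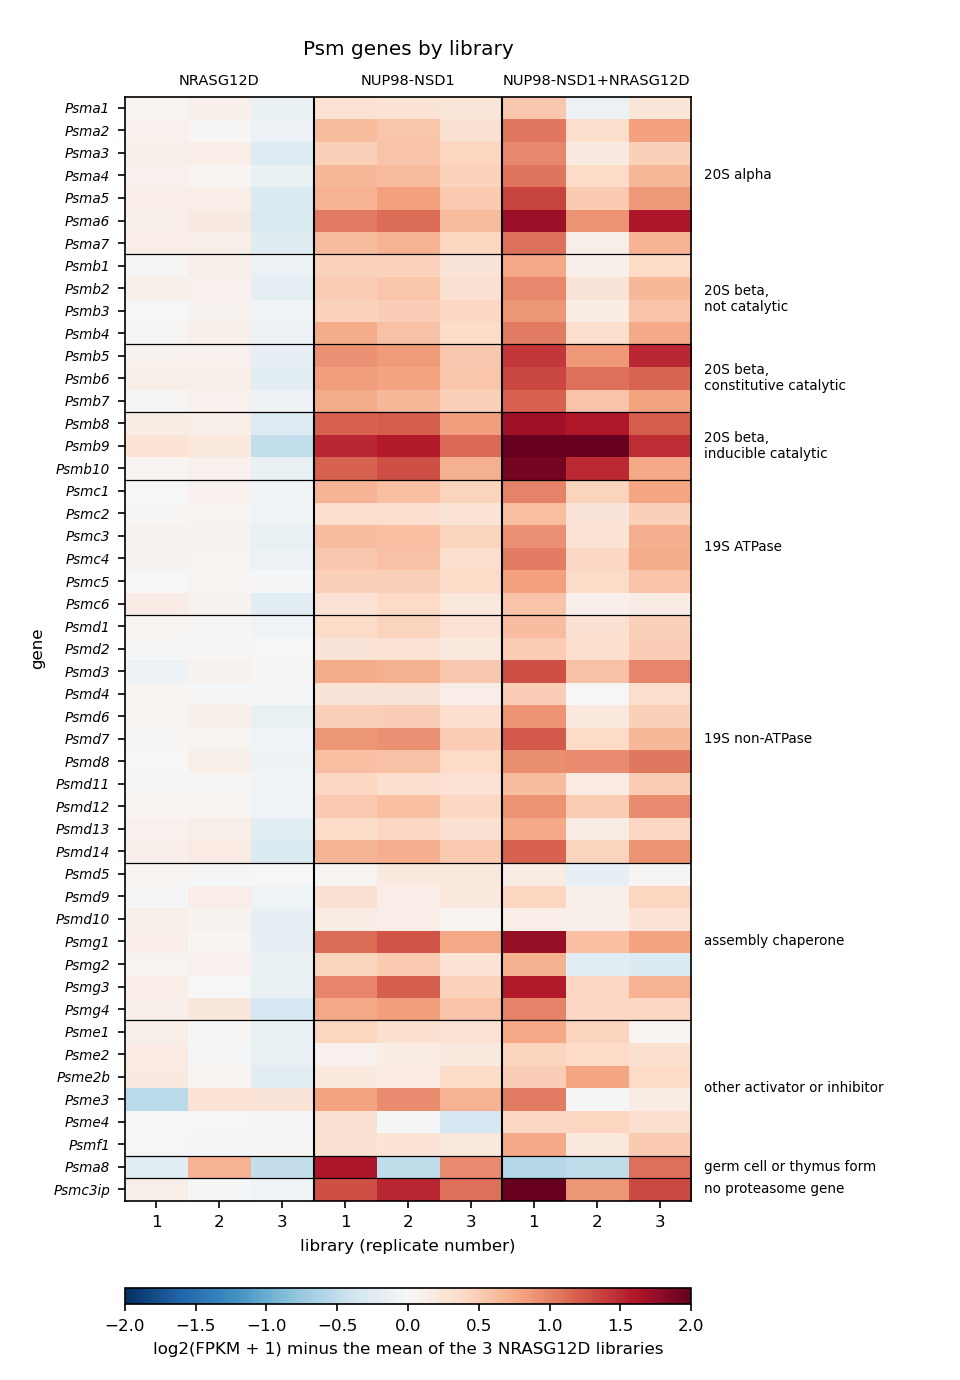
Level of each of the 49 tested genes (rows, grouped by class) in each of the 9 libraries (columns, replicates 1 to 3 of each group), as log2(FPKM + 1) minus the mean of the 3 NRASG12D libraries. Red marks higher and blue lower values. The colour scale ends at 2, and in NUP98-NSD1+NRASG12D, Psmb9 in replicates 1 and 2 and Psmc3ip in replicate 1 lie at its upper end.

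Single libraries were high or low across most members, as the map of levels by library shows. NRASG12D replicate 3 was the lowest of all 9 libraries for 41 of 49 tested members, and NUP98-NSD1+NRASG12D replicate 1 was the highest for 41. Within NUP98-NSD1, replicate 3 was the lowest for 44 of 49 tested members. The median coefficient of variation of the members was 8.65% in NRASG12D, 7.92% in NUP98-NSD1 and 23% in NUP98-NSD1+NRASG12D cells. In the last group, the highest library exceeded the lowest by a median factor of 1.57. The median log2(FPKM + 1) of the members lay above that of all tested genes by 2.93 to 3.06 in NRASG12D, 3.20 to 3.25 in NUP98-NSD1, and 3.61, 3.09 and 3.43 in NUP98-NSD1+NRASG12D replicates 1, 2 and 3.

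NUP98-NSD1 cells had higher levels of most proteasome genes than NRASG12D cells. Of 49 members, 41 were called higher and 0 lower at an adjusted p under 0.05 (limma, Benjamini-Hochberg over all 13493 genes), and 42 had an unadjusted p under 0.05. Of all tested genes, 42.2% were called higher and 9.98% lower in this comparison. The members' median log2 fold change was 0.50 (quartiles 0.34 and 0.69), beside 0.27 (quartiles -0.04 and 0.61) over all tested genes. For 44 members the 3 NUP98-NSD1 libraries all lay above the 3 NRASG12D libraries, which was so for 50.7% of all tested genes. With FPKM rescaled by the median ratio between libraries, the median of all genes moved to -0.01 and that of the members to 0.16. Then 20 members were called higher and 0 lower, beside 22.7% and 23.3% of all genes, and the higher share of all calls went from 80.9% to 49.3%. It was 43.2% with quantile normalization, where 23 members were called higher, and 67.5% with rescaling to a fixed sum, where 34 were. Under median-ratio scaling the fold changes of Psma1, Psmc2, Psmd2, Psmd4 and Psmf1, all called higher above, turned negative.

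NUP98-NSD1+NRASG12D cells also had higher levels of many proteasome genes than NRASG12D cells. Of 49 members, 25 were called higher and 0 lower, beside 24.2% of all tested genes called higher and 14.1% lower. The members' median was 0.60 (quartiles 0.42 and 0.85) and that of all genes was 0.23. For 38 members the groups did not overlap, with all 3 NUP98-NSD1+NRASG12D libraries higher, and this was so for 38.7% of all genes. Without NRASG12D replicate 1, 2 or 3 the calls numbered 9, 11 and 9, and without NUP98-NSD1+NRASG12D replicate 3 they numbered 11. With median-ratio scaling 21 members were called higher, with quantile normalization 15 (and Psmd5 lower), and with rescaling to a fixed sum 14. The higher share of all calls was 63.1% without scaling and 50.9%, 41.3% and 47.8% under these. Both comparisons use the same NRASG12D libraries, so their results are not independent of each other.

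No member passed the threshold when the cells with both vectors were set against NUP98-NSD1 cells. By limma 0 of 49 members were called higher or lower, and 2 had an unadjusted p under 0.05, beside 2.3% of all genes called higher and 6.31% lower. The members' median log2 fold change was 0.12 (quartiles 0.06 and 0.24), and that of all genes was -0.06. For 7 members all 3 NUP98-NSD1+NRASG12D libraries lay above all NUP98-NSD1 libraries, against 11.6% of all genes. Without NUP98-NSD1+NRASG12D replicate 1, 2 members, Psme3 and Psmg2, were called lower. All 9 libraries in 1 fit called Psmd8 higher, and median-ratio scaling called Psmb6 higher.

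**Figure D2:**
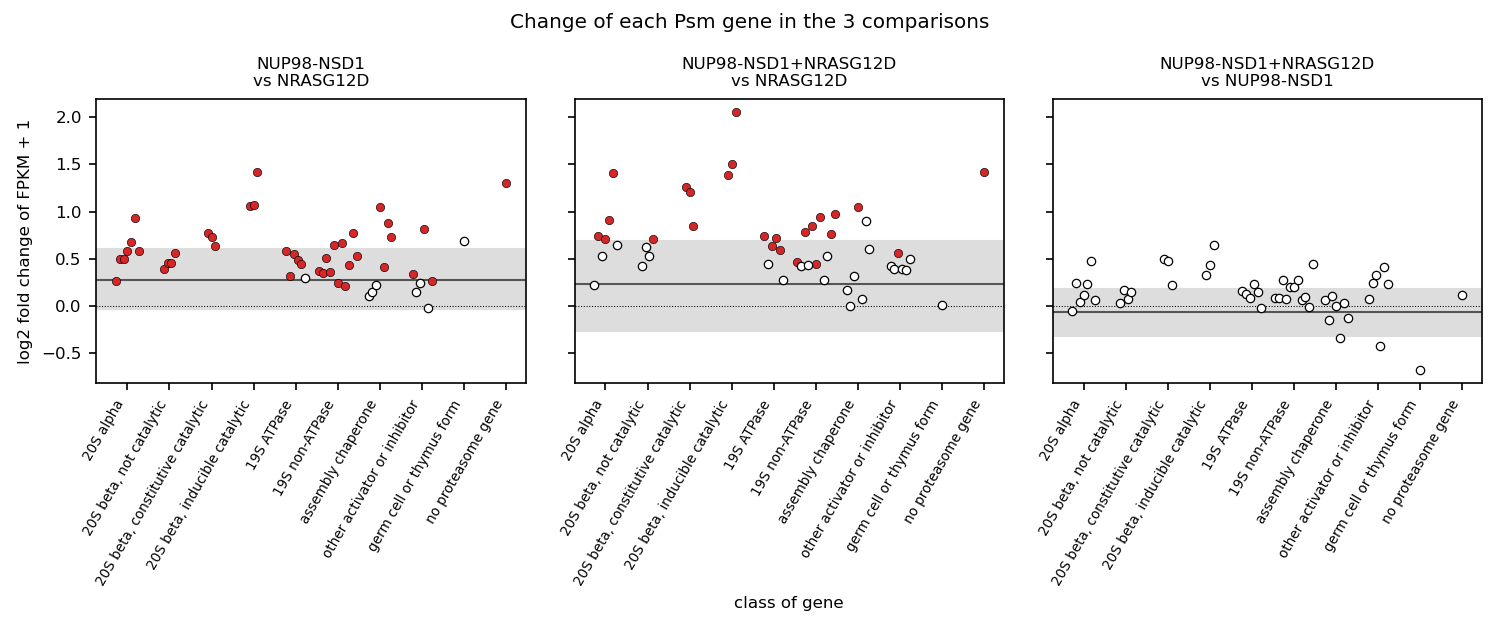
Log2 fold change of FPKM + 1 (vertical axis) of each of the 49 tested genes by class (horizontal axis) in the 3 comparisons. Filled red points passed an adjusted p of 0.05 and open points did not. The dark line and the grey band give the median and the quartiles of all 13493 tested genes, and in both comparisons with NRASG12D the 3 inducible catalytic subunits lie above the band.

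The inducible catalytic subunits of the 20S core were among the 5 members with the largest changes against NRASG12D in both comparisons. Psmb8 (chromosome 17 from 34197721 to 34201454, GRCm38) replaces the chymotrypsin-like subunit Psmb5. It had 123, 121 and 93.2 FPKM in NRASG12D, 253, 258 and 199 FPKM in NUP98-NSD1 and 363, 341 and 259 FPKM in NUP98-NSD1+NRASG12D libraries. Each group lay above the one before without overlap. Psmb8 rose by 1.07 (SE 0.15, adjusted p = 0.00187, limma) in NUP98-NSD1 and by 1.503 (SE 0.20, adjusted p = 0.00155) in NUP98-NSD1+NRASG12D over NRASG12D cells on the log2(FPKM + 1) scale.

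Psmb9 (chromosome 17 from 34181987 to 34187764) replaces the caspase-like subunit Psmb6. It was the lowest of the 6 catalytic subunits, with 12.5, 11.9 and 6.96 FPKM in NRASG12D, 30.9, 32.5 and 23.6 FPKM in NUP98-NSD1 and 57.0, 54.5 and 30.1 FPKM in NUP98-NSD1+NRASG12D libraries. NRASG12D lay below both other groups, which overlapped with each other. Its log2 fold changes of 1.41 (SE 0.22, adjusted p = 0.00293) and 2.05 (SE 0.31, adjusted p = 0.00274, limma) against NRASG12D were the largest of all members in both comparisons.

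Psmb10 (chromosome 8 from 105935735 to 105938444) replaces the trypsin-like subunit Psmb7. It had 29.96, 30.7 and 25.8 FPKM in NRASG12D, 66.6, 71.7 and 47.7 FPKM in NUP98-NSD1 and 111, 82.7 and 49.5 FPKM in NUP98-NSD1+NRASG12D libraries. Both groups with the fusion lay above NRASG12D and overlapped with each other. The log2 fold changes were 1.06 (SE 0.16, adjusted p = 0.00249) and 1.39 (SE 0.29, adjusted p = 0.00974, limma). The calls of all 3 inducible subunits against NRASG12D held under each scaling and without each library in turn.

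The constitutive counterparts also rose. Psmb5 (chromosome 14 from 54614119 to 54618022) had 95.7, 97.0 and 81.5 FPKM in NRASG12D, 172, 166 and 133 FPKM in NUP98-NSD1 and 246, 166 and 261 FPKM in NUP98-NSD1+NRASG12D libraries. Psmb6 (chromosome 11 from 70525367 to 70527858) had 173, 173 and 136 FPKM, then 286, 279 and 235 FPKM, then 407, 345 and 359 FPKM in the same order. Psmb7 (chromosome 2 from 38588036 to 38644087) had 64.3, 67.8 and 58.9 FPKM, then 107, 101 and 89.1 FPKM, then 145, 95.0 and 112 FPKM. For all 3 genes NRASG12D lay below both other groups, and for Psmb6 NUP98-NSD1+NRASG12D also lay above NUP98-NSD1. Against NRASG12D, the log2 fold changes of Psmb5 were 0.77 (SE 0.12, adjusted p = 0.00306) and 1.26 (SE 0.21, adjusted p = 0.00391, limma). Those of Psmb6 were 0.73 (SE 0.13, adjusted p = 0.00401) and 1.20 (SE 0.17, adjusted p = 0.00205, limma). Psmb7 rose by 0.63 (SE 0.10, adjusted p = 0.00279) and 0.85 (SE 0.19, adjusted p = 0.0123, limma), and its latter call was lost without NRASG12D replicate 1 (adjusted p = 0.0526) or 3 (adjusted p = 0.0615).

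None of the 6 catalytic subunits passed the threshold in NUP98-NSD1+NRASG12D against NUP98-NSD1 cells, while for Psmb8 and Psmb6 the libraries did not overlap. The log2 differences were 0.43 (SE 0.21) for Psmb8, 0.64 (SE 0.28) for Psmb9, 0.33 (SE 0.32) for Psmb10, 0.49 (SE 0.23) for Psmb5, 0.47 (SE 0.18) for Psmb6 and 0.22 (SE 0.20) for Psmb7. Their adjusted p in limma ran from 0.153 for Psmb6 to 0.620 for Psmb10. With median-ratio scaling Psmb6 was called higher, with a log2 difference of 0.57 (SE 0.12, adjusted p = 0.0459, limma).

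The ratio of an inducible subunit to its counterpart within a library does not depend on the scaling between libraries. The ratio of Psmb8 to Psmb5 was 1.29, 1.24 and 1.14 in NRASG12D, 1.47, 1.55 and 1.496 in NUP98-NSD1 and 1.48, 2.05 and 0.994 in NUP98-NSD1+NRASG12D libraries. The ratio of Psmb9 to Psmb6 was 0.0723, 0.0691 and 0.0510, then 0.108, 0.117 and 0.101, then 0.140, 0.158 and 0.0838. The ratio of Psmb10 to Psmb7 was 0.466, 0.452 and 0.437, then 0.620, 0.708 and 0.535, then 0.767, 0.871 and 0.441. For all 3 pairs the NUP98-NSD1 libraries lay above the NRASG12D libraries, while NUP98-NSD1+NRASG12D spread over a wider range, with replicate 2 highest and replicate 3 lowest each time.

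On the log2 scale, the mean ratio in NUP98-NSD1 exceeded that in NRASG12D by 0.30 (SE 0.06) for Psmb8/Psmb5, 0.77 (SE 0.17) for Psmb9/Psmb6 and 0.45 (SE 0.12) for Psmb10/Psmb7. In NUP98-NSD1+NRASG12D against NRASG12D the differences were 0.24 (SE 0.31), 0.95 (SE 0.32) and 0.56 (SE 0.30), and only the groups of Psmb9/Psmb6 did not overlap. Against NUP98-NSD1 they were -0.06 (SE 0.30), 0.18 (SE 0.29) and 0.11 (SE 0.32), and all groups overlapped. No test of the ratios was made. The inducible subunits made up 31.3% to 33.2% of the FPKM of the 6 catalytic genes in NRASG12D and 37.2% to 39.9% in NUP98-NSD1. In NUP98-NSD1+NRASG12D replicates 1, 2 and 3 they made up 40.0%, 44.1% and 31.6%.

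**Figure D3:**
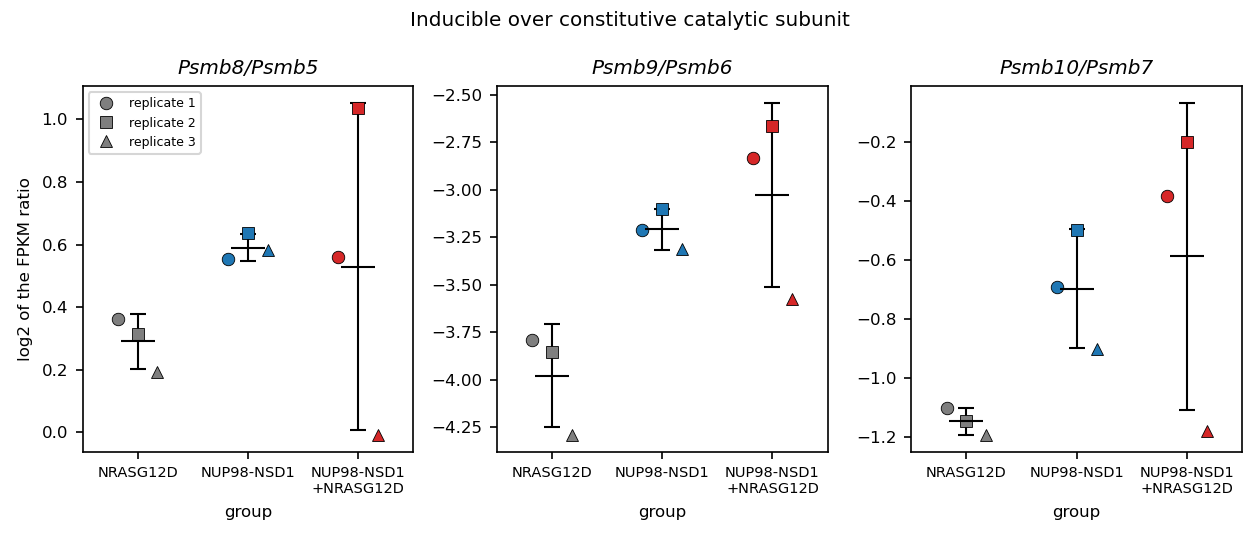
Log2 of the FPKM ratio of each inducible catalytic subunit to its constitutive counterpart (vertical axis, a separate range in each panel) by group (horizontal axis). Points are libraries, with circles, squares and triangles for replicates 1, 2 and 3, and the bars give the mean and the SD over 3 libraries. The 3 NUP98-NSD1 libraries lie above the 3 NRASG12D libraries in each panel, and replicate 3 of NUP98-NSD1+NRASG12D is the lowest of its group in each.

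Some reads of these genes could belong to near-identical copies. Of the 50-base stretches of Psmb5 transcripts, 54.1% also occur in other genes, most of them in Gm3375, a copy listed at 17.7 to 54.0 FPKM. In an alternative chosen after seeing the data, with Gm3375 added to Psmb5, the differences of the Psmb8/Psmb5 ratio were 0.30, 0.24 and -0.06 in the 3 comparisons. Psmb9 lies head to head with Tap1, a peptide transporter gene, and 4.19% of its stretches also occur in Tap1 transcripts. The RefSeq starts of both genes are 225 bases apart, while the longest Psmb9 transcript runs past the start of Tap1. Whether reads were counted by strand is not given in the sources used here, so reads of this overlap cannot be told apart.

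Promoter sequence was examined because these members moved together. RefSeq windows on GRCm38.p6 of 300 bases, 250 of them before the start of the gene, were held for 42 of the 50 members, as 45 windows, and for 32851 starts in all. Both strands were searched for the antioxidant response element, the site of the proteasome gene regulators Nfe2l1 and Nfe2l2 (TGACNNNGC). It occurred in 6 of the 45 windows (13.3%), beside 12.4% of all windows. The gamma-activated site (TTCNNNGAA) occurred in 3 windows (6.67%), beside 8.30%. The interferon response element core (GAAANNGAA) occurred in 7 windows (15.6%), beside 8.56%, and none of these belonged to Psmb8, Psmb9 or Psmb10. The CCAAT box occurred in 15 windows (33.3%), beside 37.4%. The matches are descriptions of letters, not of binding.

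The matches in 4 catalytic subunit genes are shown 5′ to 3′ on the strand of the gene, with the matching bases in capitals, because these were the catalytic subunit genes whose windows held a match. The Psmb10 window held none of the 4 motifs, and no window was held for Psmb7. The Psmb5 window lies on the minus strand of chromosome 14 from 54618023 to 54618122, just before the annotated gene. The Psmb6 window lies on the plus strand of chromosome 11 from 70525268 to 70525356 and ends before the RefSeq start. Both hold the antioxidant response element. The Psmb8 match to the gamma-activated site, on the plus strand of chromosome 17 from 34198088 to 34198116, lies 88 bases before the RefSeq start and inside the first exon of a longer annotated transcript. The Psmb9 match to the CCAAT box, on the minus strand of chromosome 17 from 34187331 to 34187348, lies 3 bases before the RefSeq start, reads on the opposite strand and also falls within an exon of longer transcripts.
Psmb5: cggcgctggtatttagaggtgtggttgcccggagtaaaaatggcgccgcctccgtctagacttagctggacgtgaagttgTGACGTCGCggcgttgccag
Psmb6: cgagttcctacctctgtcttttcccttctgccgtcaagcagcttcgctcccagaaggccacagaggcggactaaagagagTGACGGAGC
Psmb8: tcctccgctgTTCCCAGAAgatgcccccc
Psmb9: gcagccgctgATTGGaaa

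Among the other subunits of the core, the 7 alpha subunits all rose in NUP98-NSD1 over NRASG12D cells, by log2 0.27 for Psma1, whose sign turned under median-ratio scaling, to 0.93 for Psma6. The call of Psma1 was lost in 4 of 6 fits without a single library (adjusted p up to 0.102, limma). In NUP98-NSD1+NRASG12D cells 4 of 7 were called higher. Of all tested genes, 42.2% were called higher in NUP98-NSD1 and 24.2% in NUP98-NSD1+NRASG12D over NRASG12D cells. Psma6, encoded on chromosome 12 from 55384222 to 55418454, had the largest changes among them. Its levels were 83.9, 88.4 and 63.7 FPKM in NRASG12D, 161, 170 and 121 FPKM in NUP98-NSD1 and 256, 146 and 241 FPKM in NUP98-NSD1+NRASG12D libraries. NRASG12D lay below both other groups, with fold changes of 0.93 (SE 0.17, adjusted p = 0.00459) and 1.41 (SE 0.26, adjusted p = 0.00585, limma). The 4 beta subunits without catalytic activity (Psmb1, Psmb2, Psmb3 and Psmb4) all rose in NUP98-NSD1 cells, by 0.39 to 0.56. In NUP98-NSD1+NRASG12D cells only Psmb4 was called. None of the 4 overlapped with NRASG12D, and 38.7% of all tested genes also lay higher without overlap. The gap was small for Psmb1, with 99.6 FPKM in the lowest NUP98-NSD1+NRASG12D library and 99.3 FPKM in the highest NRASG12D library. Of stretches of Psma5, 50.0% occur in other genes, mostly Gm8394, so its level is uncertain.

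In the 19S cap, the median log2 fold change of NUP98-NSD1 over NRASG12D was 0.47 for the ATPases and 0.44 for the other subunits, beside 0.73 for the constitutive catalytic subunits. Of the 6 ATPases, which unfold substrates, 5 were called higher in NUP98-NSD1 (beside 42.2% of all genes) and 4 in NUP98-NSD1+NRASG12D cells (beside 24.2%) over NRASG12D. The exception in the former was Psmc6, with a log2 difference of 0.29 (SE 0.11, adjusted p = 0.0592, limma) that turned to -0.04 under median-ratio scaling. All 11 non-ATPase subunits rose in NUP98-NSD1 cells, from 0.21 for Psmd4, a ubiquitin receptor whose sign turned under median-ratio and quantile scaling, to 0.77 for Psmd7. The calls of Psmd4 and Psmd2 were each lost in 5 of 6 fits without a single library (adjusted p up to 0.152 and 0.091, limma). In NUP98-NSD1+NRASG12D cells 7 of 11 were called. Psmd8, a lid subunit, was even across these 3 libraries, with 190, 194 and 208 FPKM, against 98.9, 108 and 92.5 FPKM in NRASG12D and 152, 150 and 132 FPKM in NUP98-NSD1 cells. Its groups did not overlap in any comparison, and its fold change over NRASG12D was 0.98 (SE 0.14, adjusted p = 0.00222). It was 0.45 (SE 0.15, adjusted p = 0.12, limma) over NUP98-NSD1, and with all 9 libraries in 1 fit it was called there (SE 0.12, adjusted p = 0.0330). Psmd8 was chosen after its values were seen. Over all 31 constitutive subunits of core and cap, 30 were called higher in NUP98-NSD1 and 19 in NUP98-NSD1+NRASG12D cells over NRASG12D. Their median log2 fold changes were 0.50 and 0.64, and the lowest were 0.21 and 0.22, so all 31 were positive in both.

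Of the 7 chaperones that assemble the particle, 4 were called higher in NUP98-NSD1 over NRASG12D cells, beside 42.2% of all tested genes. Psmg1, Psmg2, Psmg3 and Psmg4, which act on the 20S core, all rose in NUP98-NSD1 over NRASG12D cells. Psmd5, Psmd9 and Psmd10, which act on the base of the cap, were not called, with log2 differences of 0.11 to 0.22 that turned negative under median-ratio scaling. Psmg1 led the class with 24.6, 23.02 and 19.9 FPKM in NRASG12D, 49.8, 55.02 and 39.2 FPKM in NUP98-NSD1 and 77.3, 34.6 and 39.7 FPKM in NUP98-NSD1+NRASG12D libraries. NRASG12D lay below both other groups, which overlapped. The fold changes over NRASG12D were 1.05 (SE 0.14, adjusted p = 0.00179) and 1.05 (SE 0.30, adjusted p = 0.0319, limma), the latter lost without NRASG12D replicate 1, 2 or 3 or NUP98-NSD1+NRASG12D replicate 3 (adjusted p up to 0.11). In NUP98-NSD1+NRASG12D cells Psmg1 was the only chaperone called, beside 24.2% of all tested genes called higher.

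Among the classes of proteasome genes, the activators and the inhibitor of the core had the smallest median in NUP98-NSD1 over NRASG12D cells. It was 0.25 over 6 genes, beside 0.27 over all tested genes. Psme1 and Psme2 form the interferon-inducible 11S cap. Psme1 had 101, 94.6 and 84.7 FPKM in NRASG12D, 125, 116 and 115 FPKM in NUP98-NSD1 and 160, 127 and 96.7 FPKM in NUP98-NSD1+NRASG12D libraries. It rose by 0.34 (SE 0.09, adjusted p = 0.0171, limma) in NUP98-NSD1 cells without overlap, a change that was 0.01 under median-ratio scaling and was not called without NUP98-NSD1 replicate 1 (adjusted p = 0.0655) or 2 (adjusted p = 0.0506). NUP98-NSD1+NRASG12D overlapped with NRASG12D. Psme2 had 197, 173 and 158 FPKM, then 186, 195 and 202 FPKM, then 240, 231 and 219 FPKM. NUP98-NSD1+NRASG12D lay above both other groups for Psme2, and NUP98-NSD1 overlapped with NRASG12D. Its differences from NRASG12D were 0.15 (SE 0.10, adjusted p = 0.243) and 0.39 (SE 0.15, adjusted p = 0.0836, limma), and the former turned negative under all 3 scalings. Of both 11S genes only Psme1 was called, and in 1 comparison, while the 3 inducible catalytic subunits were called in both comparisons with NRASG12D.

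Psme3, the nuclear activator, had 48.9, 86.3 and 85.3 FPKM in NRASG12D, 125, 138 and 116 FPKM in NUP98-NSD1 and 147, 70.2 and 79.2 FPKM in NUP98-NSD1+NRASG12D libraries. Only NUP98-NSD1 and NRASG12D did not overlap, with a fold change of 0.82 (SE 0.22, adjusted p = 0.0178, limma). The call was lost without NUP98-NSD1 replicate 1 (adjusted p = 0.051) or 2 (adjusted p = 0.0647). Psme2b, a copy of Psme2 that shares 69.3% of its stretches with other genes, was called in NUP98-NSD1+NRASG12D over NRASG12D cells with 0.57 (SE 0.18, adjusted p = 0.0433). That call was kept in 1 of 6 fits without a single library, and it is uncertain, since reads of Psme2 at 158 to 240 FPKM can be placed on it. Psme4, which also caps the core in the nucleus, was low with 1.61 to 3.51 FPKM over all libraries and was not called. Psmf1, an inhibitor of the core, rose by 0.26 (SE 0.07, adjusted p = 0.0234, limma) in NUP98-NSD1 cells and turned negative under median-ratio and quantile scaling. Its call was lost without replicate 1 or 2 of either group.

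Psmc3ip, the recombination factor caught by the name pattern, had 6.13, 5.46 and 5.18 FPKM in NRASG12D, 15.0, 17.7 and 13.1 FPKM in NUP98-NSD1 and 26.2, 11.1 and 15.5 FPKM in NUP98-NSD1+NRASG12D libraries. NRASG12D lay below both other groups. Its fold changes of 1.30 (SE 0.13, adjusted p = 0.000725) and 1.42 (SE 0.29, adjusted p = 0.00979, limma) exceeded those of all members but Psmb9 in the former and Psmb9 and Psmb8 in the latter comparison. Of its stretches, 17.6% occur in the neighbouring gene Mlx at 30.1 to 137 FPKM.

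Proteasome parts and partners outside the name pattern were read from a list of 16 genes. In NUP98-NSD1 over NRASG12D cells 8 were called higher and 0 lower, beside 42.2% and 9.98% of all tested genes. In NUP98-NSD1+NRASG12D cells 3 were called higher and 0 lower, beside 24.2% and 14.1%. The latter were Pomp, Sem1 and Usp14. With median-ratio scaling 3 were called higher and 1 lower in the former comparison and 3 higher and 3 lower in the latter. Pomp, the chaperone that completes the core and is needed for the immunoproteasome, had 118, 124 and 98.8 FPKM in NRASG12D, 210, 202 and 145 FPKM in NUP98-NSD1 and 298, 200 and 281 FPKM in NUP98-NSD1+NRASG12D libraries. It rose by 0.69 (SE 0.16, adjusted p = 0.0111) and 1.17 (SE 0.20, adjusted p = 0.00472, limma). Sem1, the small subunit of the cap, rose by 0.56 (adjusted p = 0.0111) and 1.03 (adjusted p = 0.00729), and the deubiquitinase Usp14 by 0.52 (adjusted p = 0.00376) and 0.68 (adjusted p = 0.0118, limma). The latter call of Usp14 was lost without any 1 NRASG12D library (adjusted p up to 0.0631). In NUP98-NSD1 cells the receptor Adrm1 (0.38), the deubiquitinase Uchl5 (0.64), the shuttle factors Rad23b (0.81) and Ubqln4 (0.37), and Txnl1 (0.45), a protein of the cap, also rose. The call of Ubqln4 was lost without NUP98-NSD1 replicate 1 or 2, and that of Txnl1 without replicate 2. Vcp, the ATPase that extracts ubiquitin-tagged proteins, had 218, 227 and 247 FPKM in NRASG12D, 213, 215 and 211 FPKM in NUP98-NSD1 and 208, 179 and 169 FPKM in NUP98-NSD1+NRASG12D libraries, and both other groups lay below NRASG12D. Its log2 differences were -0.11 (adjusted p = 0.252) and -0.32 (adjusted p = 0.144, limma). All 3 scalings called Vcp lower in both comparisons, with -0.45 (adjusted p = 0.00724) and -0.56 (adjusted p = 0.0153, limma) under median-ratio scaling. In NUP98-NSD1+NRASG12D over NRASG12D cells Zfand5, a proteasome-binding zinc finger protein, was called lower under all 3 scalings and Ube3c, a ubiquitin ligase, under median-ratio and quantile scaling. In NUP98-NSD1+NRASG12D against NUP98-NSD1 cells limma called 0 of the 16, with an unadjusted p under 0.05 for 2, and 3 were called without NUP98-NSD1+NRASG12D replicate 1.

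Of the 4 regulators of proteasome gene transcription, 1 was called higher in NUP98-NSD1 and 1 lower in NUP98-NSD1+NRASG12D cells against NRASG12D. Beside these, 42.2% of all tested genes were called higher in the former and 14.1% lower in the latter comparison. The transcription factors Nfe2l1 and Nfe2l2 were not called without scaling. In NUP98-NSD1 over NRASG12D cells Nfe2l1 had a log2 difference of 0.04 (adjusted p = 0.697) that turned negative under all 3 scalings and was called lower under median-ratio scaling, with -0.29 (adjusted p = 0.0305, limma), and under quantile scaling. Ddi2, the protease that activates Nfe2l1, rose by 0.26 (adjusted p = 0.0372, limma) in NUP98-NSD1 over NRASG12D cells and turned negative under median-ratio and quantile scaling, and the call was lost without any 1 of the 6 libraries. Ngly1, the glycanase that acts on Nfe2l1, had 28.05, 25.7 and 26.4 FPKM in NRASG12D, 26.97, 29.02 and 31.4 FPKM in NUP98-NSD1 and 17.1, 21.2 and 15.3 FPKM in NUP98-NSD1+NRASG12D libraries. NUP98-NSD1+NRASG12D lay below both other groups, and Ngly1 fell by 0.57 (SE 0.16, adjusted p = 0.0322, limma) against NRASG12D, a call lost without any 1 NRASG12D library or NUP98-NSD1+NRASG12D replicate 3 (adjusted p up to 0.123).

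Antigen processing genes, which act on the peptides of the immunoproteasome, were read from a list of 9. In NUP98-NSD1 over NRASG12D cells 4 of 9 were called higher and 0 lower, beside 42.2% and 9.98% of all tested genes. They were Tap1, H2-K1, Nlrc5 and B2m, the last with a sign that turned under median-ratio scaling. Under that scaling 2 were called higher and 3, namely Tap2, Tapbp and H2-D1, lower. In NUP98-NSD1+NRASG12D over NRASG12D cells 3 of 9 were called higher and 0 lower, beside 24.2% and 14.1% of all genes. The 3 were Tap1, Nlrc5 and Irf1, while each scaling called 1 higher and Tap2 lower. Between both groups with the fusion limma called 0, with an unadjusted p under 0.05 for 2 genes, and 1 without NUP98-NSD1+NRASG12D replicate 1. The call of Irf1, an interferon regulatory factor, was lost without any 1 NRASG12D library or NUP98-NSD1+NRASG12D replicate 2 (adjusted p up to 0.151). That of B2m was lost without replicate 1 or 2 of either group. Nlrc5, the activator of class I genes, had 0.114, 0.224 and 0.158 FPKM in NRASG12D, 2.24, 2.28 and 2.24 FPKM in NUP98-NSD1 and 2.69, 7.66 and 4.49 FPKM in NUP98-NSD1+NRASG12D libraries. The 3 groups did not overlap. Nlrc5 passed the filter only through the groups with the fusion, so its calls over NRASG12D give no support. The counts of 4 and 3 called higher include it. Tap1 had 20.7, 20.0 and 15.1 FPKM, then 29.6, 32.1 and 31.3 FPKM, then 32.9, 62.1 and 28.4 FPKM. Tap1 rose by 0.72 (SE 0.13, adjusted p = 0.00420) and 1.03 (SE 0.30, adjusted p = 0.0342, limma), and the latter call was lost without any 1 NRASG12D library (adjusted p up to 0.122). Tap2, its partner, Tapbp, Erap1 and H2-D1 were not called without scaling in any comparison.

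Within NUP98-NSD1+NRASG12D most of the antigen processing genes and most proteasome subunits differed in which library was highest. B2m, the light chain of class I molecules, had 1103, 3108 and 1433 FPKM in replicates 1, 2 and 3. H2-K1, a class I heavy chain, had 259, 809 and 383 FPKM. Replicate 2 was the highest library for 8 of the 9 listed genes, and it was the lowest of its group for 39 of 49 proteasome members. The exception was Tap2, with 64.3, 79.1 and 87.8 FPKM, highest in replicate 3. The macrophage and dendritic cell markers were highest in replicate 2, with a sum of 1665 FPKM against 640 and 711 FPKM in replicates 1 and 3. So were the mast cell markers, with 4347 against 974 and 745 FPKM, and the erythroid markers, with 37.5 against 17.4 and 3.55 FPKM. The granulocyte and monocyte markers were lowest in replicate 2, with 17327 against 19358 and 30458 FPKM. The part of these markers in this was not tested. Psmb8 and Psmb9 were highest in replicate 1 with replicate 2 close behind, while Psmb5 and Psmb6 were lowest in replicate 2.

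**Figure D4:**
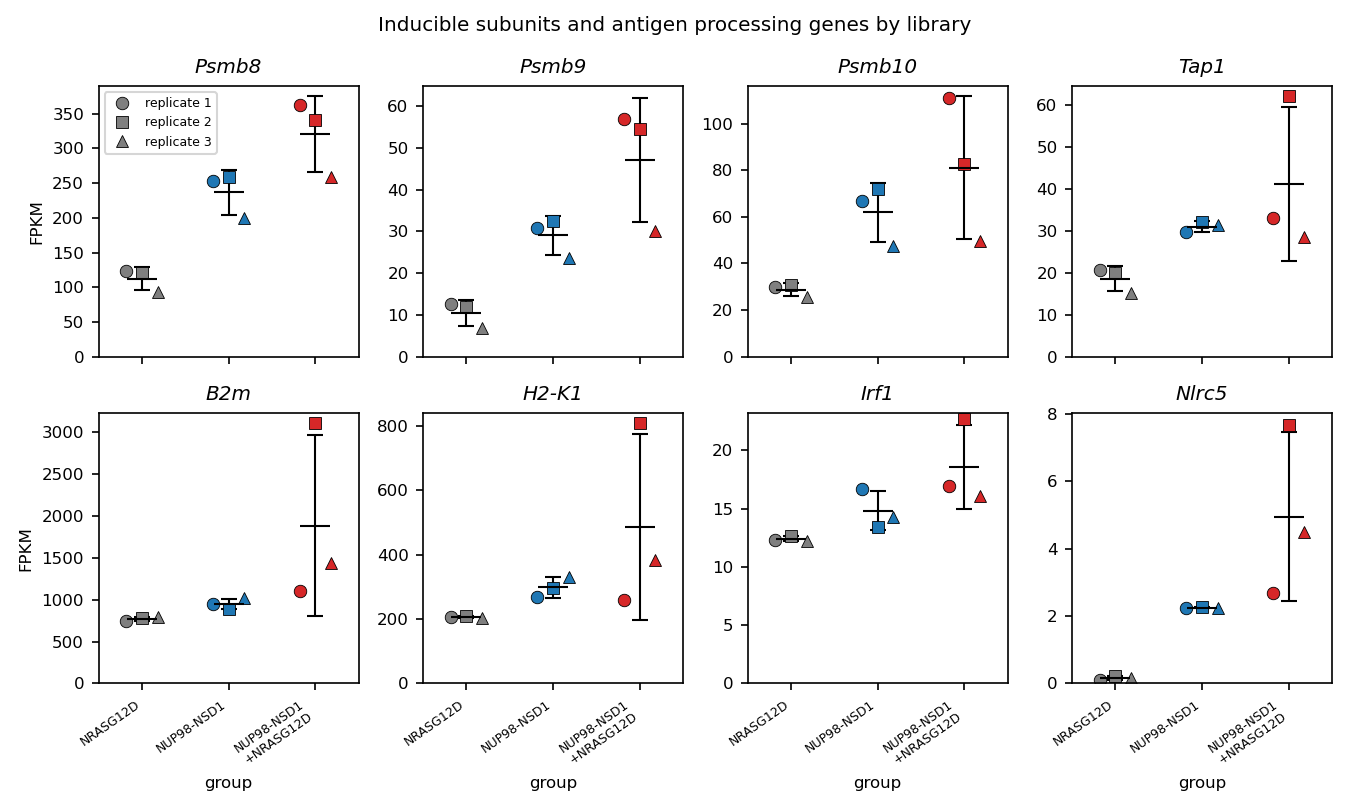
FPKM (vertical axis, from 0, a separate range in each panel) of the 3 inducible catalytic subunits and 5 antigen processing genes by group (horizontal axis). Points are libraries, with circles, squares and triangles for replicates 1, 2 and 3, and the bars give the mean and the SD over 3 libraries. In NUP98-NSD1+NRASG12D, replicate 2 (square) is the highest for Tap1, B2m, H2-K1, Irf1 and Nlrc5, and replicate 1 (circle) for the 3 subunits.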

How the data were processed

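RNA-seq of 9 libraries was examined, 3 in each of 3 groups taken from the sample labels. The deposited values are FPKM per gene, which the authors made from paired 50-base reads with STAR 2.7.2a and Cufflinks 2.2.1 (per the submitters' processing notes) on GRCm38 with GENCODE annotation M22. How reads with several positions and strand were handled is not given in the sources used here. Transcript lengths and 50-base stretches were taken from GENCODE M21, in which all 50 members had the coordinates of the deposited values. Library depth was estimated from the steps of low values, of which 82.1% to 84.6% fell on whole fragments within a tolerance of 0.1. No count test was run, because the deposited values are FPKM and not counts. Values were compared as log2(FPKM + 1) with limma 3.58.1 in R 4.3.3 (empirical Bayes with a variance trend), on the 6 libraries of each comparison, for 13493 genes with at least 1 FPKM in 3 libraries or more. P-values were adjusted by Benjamini-Hochberg over all these genes, with a threshold of 0.05. On this scale the change of low genes is understated. The fit was tested on simulated data.

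Members and gene lists were chosen with earlier results of these data known. Values in every library are given for the 6 catalytic subunits, Psme1, Psme2, Psme3 and the 5 called members with the largest change in each comparison. Also named are the highest and lowest members, those that failed the filter or encode no proteasome part, and listed partner genes that passed the threshold. Other members were chosen after their values were seen. Alternatives were another pseudocount, no filter, median-ratio, quantile and fixed-sum (TPM) scaling, all 9 libraries in 1 fit, the replicate number as a block, and leaving out each library. Python 3.11.15, pandas 2.3.3 and matplotlib 3.10.9 were used. Promoter sequences were taken from RefSeq tables. A gene first placed on the antigen processing list was left out and is not reported here, which left 9.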

Additional observations from a re-analysis of the deposited data

How the results depend on the processing

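Counts and medians of the members moved with the scaling between libraries. In NUP98-NSD1 against NRASG12D, 20 members were called with median-ratio scaling, 23 with quantile normalization and 19 with all 9 libraries in 1 fit, and the median log2 fold change was 0.16, 0.21 and, with TPM, 0.33. In NUP98-NSD1+NRASG12D against NRASG12D, 11 were called without a filter, 16 with quantile normalization (15 higher, 1 lower) and 14 with TPM, and the median was 0.37 with median-ratio scaling, 0.26 with quantile normalization and 0.37 with TPM. In NUP98-NSD1+NRASG12D against NUP98-NSD1, 1 was called with median-ratio scaling (Psmb6) and 1 with all 9 libraries (Psmd8). Leaving out 1 library gave 31 to 41, 9 to 37 and 0 to 2 calls in the 3 comparisons. The cause was not tested. The FPKM do not hold the read counts, which limits the precision known for low genes such as Psma8.

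Leaving out 1 library gave log2 ratio differences of -0.014 to 0.51 for Psmb8/Psmb5 in NUP98-NSD1+NRASG12D against NRASG12D, and against NUP98-NSD1 of -0.31 to 0.21 for Psmb8/Psmb5 and -0.085 to 0.41 for Psmb10/Psmb7. In the same way Psme4 ran from -0.19 to 0.14 and Tap2 from -0.24 to 0.031 in NUP98-NSD1 against NRASG12D, and Psme1 from -0.10 to 0.26 in NUP98-NSD1+NRASG12D against NUP98-NSD1.

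These log2 fold changes of NUP98-NSD1 against NRASG12D turned negative. With median-ratio scaling they were -0.19 (Psme2), -0.066 (Psma1), -0.12 (Psmd4), -0.012 (Psmc2), -0.040 (Psmc6), -0.22 (Psmd10), -0.064 (Psmf1), -0.059 (Ddi2), -0.29 (Nfe2l1), -0.035 (B2m), -0.087 (Psmd2), -0.18 (Psmd5) and -0.11 (Psmd9). With quantile normalization they were -0.12 (Psme2), -0.088 (Psmd4), -0.0063 (Psmc6), -0.19 (Psmd10), -0.048 (Psmf1), -0.060 (Ddi2), -0.28 (Nfe2l1), -0.036 (Psmd2), -0.16 (Psmd5) and -0.10 (Psmd9). With TPM they were -0.019 (Psme2), -0.055 (Psmd10), -0.13 (Nfe2l1) and -0.016 (Psmd5). Psma1 in NUP98-NSD1+NRASG12D against NRASG12D was -0.016, -0.14 and -0.020 under the 3 scalings.

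The deviations of libraries with the same replicate number had correlations of -0.177 to 0.160 over the 3 comparisons. Whether these libraries share a culture or an animal was not tested. With the replicate number as a block 42, 19 and 0 members were called, beside 41, 25 and 0.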

Other observations

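The 4 pseudogenes named with "-ps" that fit the name pattern had at most 0.793 FPKM in any library. Other near copies were listed higher. Gm13835, which shares stretches with the alpha subunit gene Psma3, ranged from 43.8 to 107 FPKM over the 9 libraries, and Gm8394, which shares them with Psma5, from 12.2 to 36.2 FPKM. Over 10% of the 50-base stretches of 12 of the 50 members also occur in other genes.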
